A study of Mus musculus with 7 samples.

Results

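The cells described here are the CD4 T cells to which the authors gave the name Th1, taken from CT-2A gliomas grown in the mouse brain. They were found by that name in the deposited cell table and numbered 1249 of the 28644 cells in all. The compared names were Tfh (1364 cells), Treg (1058 cells) and exhausted CD8 T cells (1549 cells). Th1 cells are helper T cells that secrete interferon gamma (Ifng) under the transcription factor T-bet (Tbx21), usually after interleukin-12 and interleukin-18 signals, and act on macrophages and cytotoxic T cells. Tfh cells help B cells through Cd40lg and Il21, Treg cells restrain other T cells under Foxp3, and exhausted CD8 T cells are cytotoxic cells worn by lasting antigen. In brain tumours, T cells of these kinds enter from the blood and meet microglia, the resident macrophages of the brain.

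All 7 mice carried 2 floxed Siglece alleles, received CT-2A glioma cells at 8 to 12 weeks of age and were given tamoxifen, 2.5 mg per injection into the peritoneum. In 4 mice the Sall1-CreERT2 driver was present as well (label Siglece KO, here KO), so that tamoxifen could delete Siglece in microglia, the cells that express Sall1; the other 3 had no Cre (label WT). The sorted cells were alive and positive for CD45, CD11b or both, came from the tumour-bearing hemisphere, and had been frozen and thawed; each mouse gave 1 droplet library read from the 5-prime end of transcripts. Siglece encodes a receptor for sialic acid that dampens myeloid cells, and Th1 cells held 22 Siglece UMIs (unique molecular identifiers, counted transcripts) among 4521745 in KO mice and 5 among 2450264 in WT mice. In microglia, where the driver acts, Siglece had 3 UMIs among 454659 in KO mice and 46 among 1345210 in WT mice, the low-quality or activated microglia included. By mouse these were 10.7, 19.6, 0 and 0 CPM (UMIs of the gene per 1000000 UMIs) in KO and 36.1, 45.9 and 18.6 CPM in WT mice, so KO replicate 2, with 1 UMI, overlapped WT replicate 3.

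The 7 libraries held 1410 to 5856 cells. Th1 cells had a median of 5088 UMIs, against 3740.0 in Tfh, 3376 in Treg and 4966 in exhausted CD8 cells, and the median over mice ran from 4059 to 9603. WT replicate 1 stood apart: it had 8 Th1 cells, 3 of them with a Cd8a or Cd8b1 UMI and none of Cd4, and was left out of every comparison of genes, which therefore set 4 KO mice against 2 WT mice. The other mice had 78 to 298 Th1 cells. Barcodes shared between libraries were carried by 46 Th1 cells (3.68%), and 2 Th1 cells shared a barcode with a Th1 cell of another library. Levels are given as CPM, the UMIs of a gene per 1000000 UMIs summed over the Th1 cells of a mouse.

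The name Th1 was checked against its 3 defining genes in all 23 annotations. Cd4, the coreceptor of helper T cells, was highest in Th1 cells of all annotations, at 691 ± 98.4 CPM (SD, n = 6 mice). Ifng stood second at 989 ± 257 CPM, behind Tfh cells at 1721 ± 822 CPM. Tbx21 stood eighth at 101 ± 17.1 CPM, below exhausted CD8 cells (224 ± 67.1 CPM), Tfh cells (141 ± 15.1 CPM) and Treg cells (112 ± 14.9 CPM). In every mouse Tbx21 was lower in Th1 than in Tfh cells. The cells named Tfh in turn were near 0 for Cxcr5, the chemokine receptor that brings Tfh cells to B cells, while Il21 was higher in them than in Th1 cells in 5 of 6 mice. The data therefore place these cells as CD4 T cells rich in Ifng, but their levels of Tbx21 and Ifng were on average below those of the cells named Tfh. The names Th1 and Tfh are used below as the authors gave them.

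Single cells were also examined, since free RNA and depth limit what 1 cell shows. Thinned to 2000 UMIs per cell, which kept 1225 Th1 cells, Cd4 was seen in 72.1%, Ifng in 47.8% and Tbx21 in 16.3% of the pooled Th1 cells, and the SD of these shares over the 6 mice was 5.21, 7.82 and 3.06 percentage points. Without thinning the means over mice were 91.7%, 66.7% and 39.2%. B cells, which should lack Cd4 and most Ifng and had a median of 7302 UMIs, showed Cd4 in 0.264% and Ifng in 1.58% after the same thinning and pooling, and in 0.246% and 4.43% as means over 6 mice (SD 6.04 for Ifng). Tbx21, which some B cells express, was seen in 2.64% of the pooled B cells, a share that is no background for it. Tfh cells showed Cd4 in 63.4%, Ifng in 50.5% and Tbx21 in 24.3%. Of the 1249 Th1 cells, 77.7% had a Cd4 UMI and no Cd8a or Cd8b1 UMI, 13.0% had both, 3.52% only Cd8 and 5.84% neither. Of markers of the other helper lineages, Foxp3 was at 17.0 ± 11.7 CPM and Il17a at 0.159 ± 0.391 CPM. Ccr6, also in the Th17 list, went the other way. It was at 33.6 ± 17.8 CPM, against 7.64 ± 5.94 in Tfh, 4.17 ± 4.28 in Treg and 0 CPM in exhausted CD8 cells. Gata3, the Th2 factor, was at 48.0 ± 13.5 CPM, against 56.7 ± 15.4 in Tfh, 72.2 ± 15.2 in Treg and 29.4 ± 7.57 CPM in exhausted CD8 cells.

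**Figure D1:**
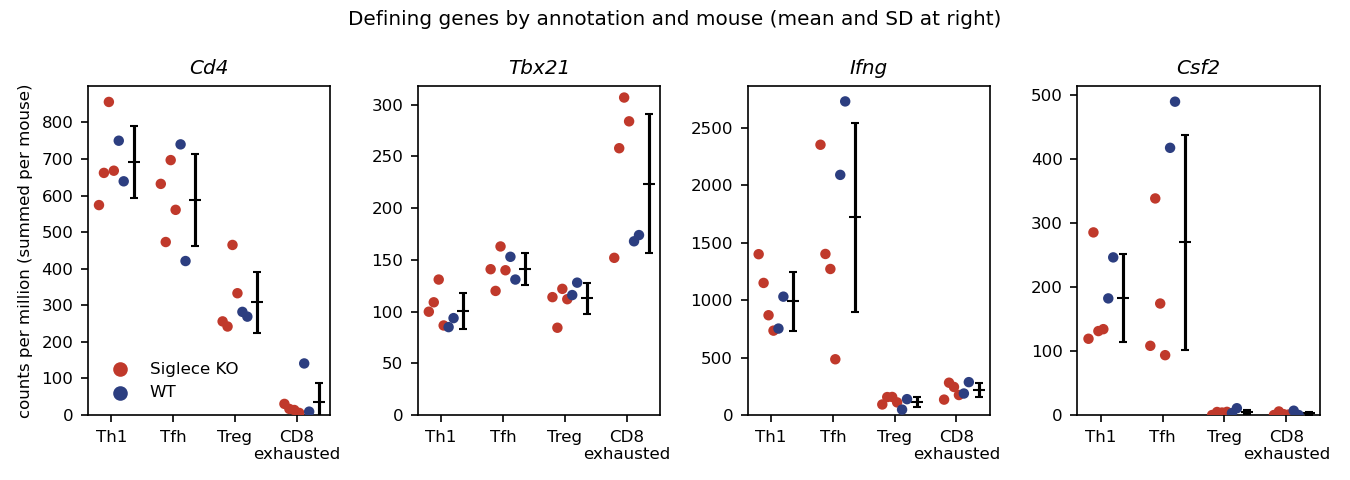
Levels of Cd4, Tbx21, Ifng and Csf2 in 4 annotations, in CPM on linear axes; each point is 1 mouse (red Siglece KO, blue WT) and the bar gives the mean and SD of 6 mice. Ifng is high in Th1 and Tfh cells and lower in Treg and exhausted CD8 cells, while Tbx21 is highest in exhausted CD8 cells.

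The first comparison was the abundance of Th1 cells by genotype. Among T cells, the Th1 share was 12.7%, 9.05%, 5.93% and 8.40% in KO replicates 1 to 4 and 2.57%, 15.6% and 13.0% in WT replicates 1 to 3. The WT mice held both the lowest and the highest shares, so the groups overlapped. The means were 9.03% ± 2.81 (SD, n = 4) and 10.4% ± 6.91 (SD, n = 3). Their difference of -1.38 percentage points gave p = 0.686 in a two-sided exact permutation test (adjusted 0.980 over 10 T cell annotations). The smallest p on 1 side, from 1 of 35 ways to divide the mice, is 0.0286, and the two-sided test doubles it. No outcome with these mice could therefore give a p under 0.05. As a share of all sorted cells the means were 4.98% and 3.24% (exact permutation p = 0.286), and as a share of CD4 T cells 28.5% and 25.2% (exact permutation p = 0.743), so the direction turned with the denominator. CD4 T cells here are the Th1, Tfh, Treg and naive or early activation annotations. The annotation of proliferating CD4 T cells and Treg cells was left out of that denominator. Without WT replicate 1 the difference among T cells was -5.29 points, with both remaining WT mice above all 4 KO mice (exact permutation p = 0.133). That p is the smallest this two-sided test can give with the mice left.

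**Figure D2:**
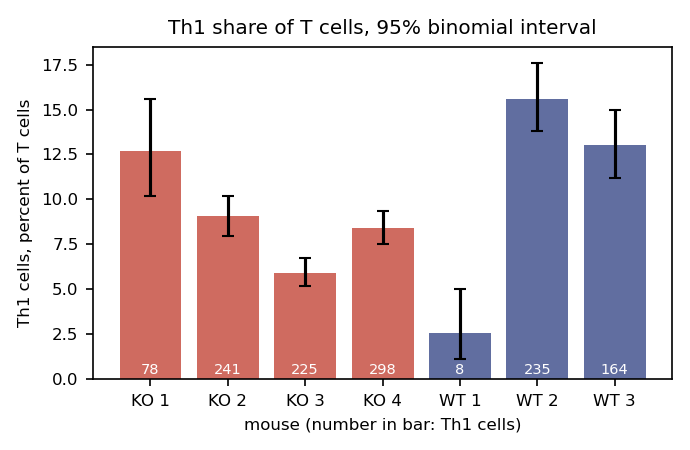
Th1 cells as a percent of all T cells in each mouse (bars from 0, red Siglece KO, blue WT), with the exact 95% binomial interval, which covers counting error only, and the number of Th1 cells written in the bar. WT replicate 1, with 8 Th1 cells, has the lowest share and WT replicate 2 the highest.

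The next comparisons set Th1 cells beside each other annotation within the same mouse. Because the names were drawn from the expression of these cells, the differences are a description and were not tested. A gene was counted where log2(CPM + 10) differed by at least 1, a 2-fold change on that scale, with the same sign in each of the 6 mice, among genes with a mean of at least 20 CPM on either side. Against Tfh cells, 1 gene was higher (0.0160% of 6265) and 2 were lower (0.0319%). Against Treg cells, 65 were higher (0.988% of 6582) and 74 lower (1.12%). Against exhausted CD8 cells, 84 were higher (1.31% of 6426) and 41 lower (0.638%). Across genes within a mouse, the correlation of log2(CPM + 10) had a median of 0.972 with Tfh, 0.891 with Treg and 0.893 with exhausted CD8 cells. Genes are not independent replicates, and both sides of each correlation came from 1 library.

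Few genes thus reached 2-fold in every mouse between Th1 and Tfh cells, while 482 were higher and 376 lower in all 6 mice by any amount. Tff1, a trefoil factor better known as a secreted peptide of the gut lining, was the single gene counted as higher in Th1 than in Tfh cells, and it was also higher than in the other 2 annotations. It stood at 185, 148, 102 and 271 CPM in Th1 cells of KO replicates 1 to 4 and at 159 and 207 CPM in WT replicates 2 and 3, against 26.5 to 112 CPM in Tfh cells. Between 39 and 106 Th1 cells carried a Tff1 UMI in each of the 5 larger libraries, and 25 in KO replicate 1. The 2 genes lower in Th1 were Ccl3 and Ccl4, chemokines that activated T cells and macrophages release to draw other immune cells. Ccl4 was at 823, 275, 559, 246, 257 and 300 CPM in Th1 cells and at 9715, 2488, 3260.1, 1105, 2944 and 3484 CPM in Tfh cells, in the same order of mice. No Th1 value reached any Tfh value, and the mean difference was -3.05 ± 0.59 on the log2(CPM + 10) scale (SD, n = 6). Ccl3 gave -3.19 ± 0.87, with 113 ± 51.6 CPM in Th1 and 1407 ± 1362 CPM in Tfh cells.

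Other genes differed from Tfh cells in 1 direction in every mouse but by less than 2-fold in at least 1 mouse. Penk, which encodes the precursor of the enkephalin opioid peptides, was higher in Th1 by 1.22 ± 0.34 (1258 ± 458 against 526 ± 151 CPM). Ccr7, the receptor that guides T cells to lymph nodes, was higher by 0.82 ± 0.35, and Ccr6, a receptor for Ccl20, by 1.26 ± 0.27. The cytotoxic gene Gzmb was lower by 1.45 in size (mean difference -1.45 ± 0.44, 114 ± 88.4 against 400 ± 414 CPM) and Cd8a by a mean difference of -1.79 ± 0.65. Of the Tfh list of 22 genes, 15 could be measured against Tfh cells, none was counted in either direction, and the median difference was 0.00. By any amount, 5 of the 15 were higher in Th1 cells in all 6 mice and 0 lower (482 and 376 of all 6265 genes). CD8 UMIs accompany this contrast: 150 of 1364 Tfh cells had Cd8 UMIs and none of Cd4, against 44 of 1249 Th1 cells. With both sides limited to cells with a Cd4 UMI and no Cd8 UMI, a choice made after seeing the data, Gzmb moved from -1.45 to -0.28 ± 0.78 (lower in 5 of 6 mice), while Ccl3 was at -3.10 ± 1.23 and Ccl4 at -3.02 ± 0.66. Tff1 was at 1.61 ± 0.41 there, higher in 6 of 6 mice but not by 2-fold in each.

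Ifng, Csf2, Tnf, Lta, Cd40lg, Tnfsf8, Tnfsf11 and Ccl1, all cytokines, chemokines or ligands, were among the genes higher in Th1 cells than in both Treg and exhausted CD8 cells. None of them was counted against Tfh cells in either direction. Of the genes counted as higher, 32 were shared by the 2 contrasts (49.2% of those against Treg and 38.1% of those against exhausted CD8 cells); the contrasts share the Th1 values. Ifng was at 1399, 1149, 868 and 734 CPM in Th1 cells of KO replicates 1 to 4 and at 752 and 1029.6 CPM in WT replicates 2 and 3. In Treg cells it was at 47.0 to 157 CPM and in exhausted CD8 cells at 134 to 286 CPM, so no mouse overlapped. The mean differences were 3.03 ± 0.59 and 2.14 ± 0.57.

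Csf2, which encodes the myeloid growth factor GM-CSF, had 119, 285, 131, 134, 182 and 246 CPM in Th1 cells in the same order of mice. Treg cells had 0 to 10.6 CPM and exhausted CD8 cells 0 to 6.72 CPM. The mean differences were 3.69 ± 0.38 and 3.92 ± 0.44, but Tfh cells had 93.4 to 489 CPM and did not differ in 1 direction. Tnf and Lta, which encode tumour necrosis factor and lymphotoxin alpha, differed by 1.60 ± 0.30 and 2.76 ± 0.81 from Treg cells and by 1.82 ± 0.23 and 2.97 ± 0.79 from exhausted CD8 cells. Cd40lg, the ligand through which helper T cells license dendritic cells and B cells, was at 101 ± 14.4 CPM in Th1 cells against 7.26 ± 6.09 CPM in Treg and 7.51 ± 13.0 CPM in exhausted CD8 cells. Tfh cells had 115 ± 30.2 CPM of Cd40lg. Tnfsf11 (RANKL, best known for driving osteoclasts) was at 495 ± 134 CPM against 29.5 ± 16.4 and 75.7 ± 59.8 CPM. Tnfsf8, the ligand of CD30, was at 164 ± 53.4 CPM against 13.5 ± 16.5 and 8.21 ± 4.46 CPM. For each of these ligands all 6 mice lay above their own Treg and exhausted CD8 cells.

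The chemokine Ccl1, the ligand of Ccr8, showed the largest difference from Treg cells. Its levels in Th1 cells were 219, 1349, 418, 318, 791 and 1087 CPM, a wide spread, against 0 to 53.2 CPM in Treg and 0 to 31.9 CPM in exhausted CD8 cells. The mean differences were 4.83 ± 0.59 and 5.04 ± 0.81. Tfh cells had 1092 ± 874 CPM of Ccl1, with a mean difference of -0.43 ± 1.17. Ccr8 itself was alike in level in Th1 (338 ± 76.0 CPM) and Treg cells (331 ± 50.3 CPM, mean difference 0.01 ± 0.31) and higher than in exhausted CD8 cells by 3.01 ± 0.81. Penk gave the largest difference from exhausted CD8 cells, 5.97 ± 0.72, and Nrgn, known from neurons as a calmodulin-binding protein, differed by 4.68 ± 0.56 from Treg and 3.02 ± 0.65 from exhausted CD8 cells.

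The 3 genes lower than in both were Gzmb, Cd27 and Fgl2. Gzmb, the granzyme of cytotoxic granules, was at 212, 58.1, 48.1, 57.0, 64.7 and 242 CPM in Th1 cells, and at 884 to 2131 CPM in Treg and 503 to 2721 CPM in exhausted CD8 cells. The costimulatory receptor Cd27 was at 28.8 ± 12.7 CPM against 180 ± 57.4 and 108 ± 22.7 CPM, and Fgl2, which encodes a fibrinogen-like protein that can be secreted by Treg cells, at 56.2 ± 32.8 CPM against 207 ± 59.3 and 243 ± 36.6 CPM.

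**Figure D3:**
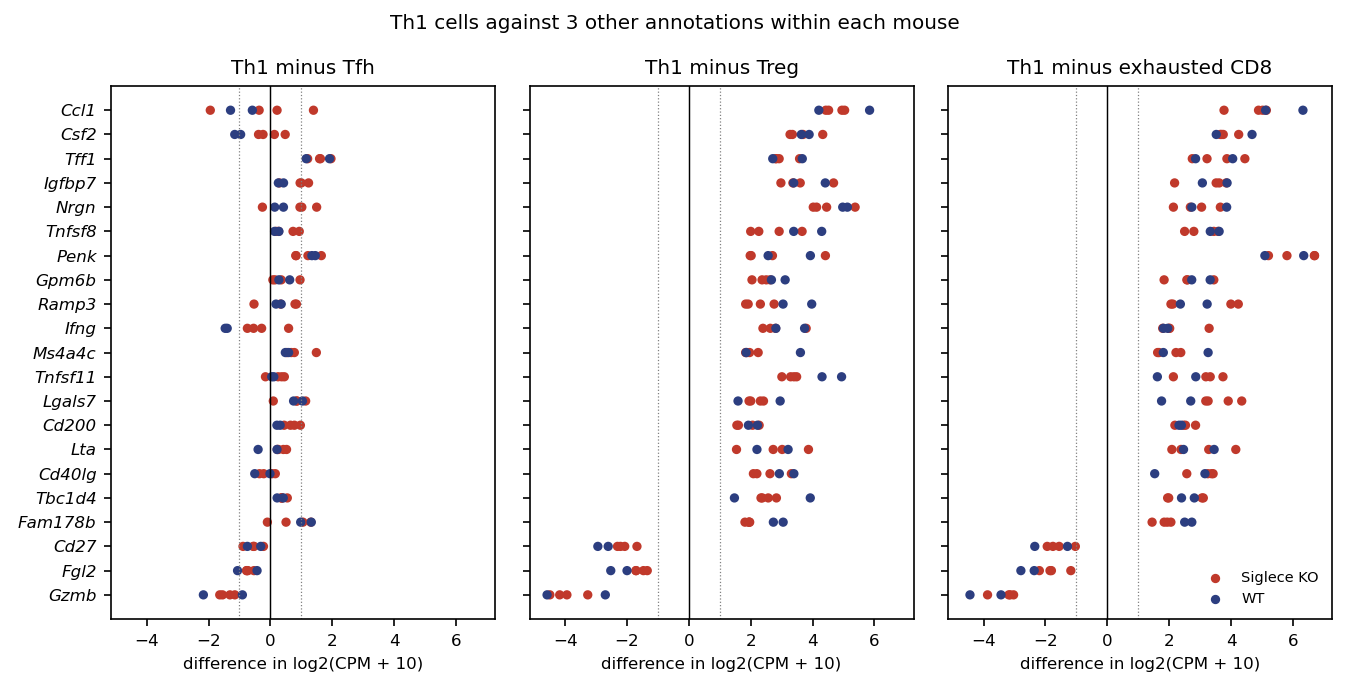
Difference in log2(CPM + 10), Th1 minus the other annotation, for 18 of the 32 genes counted as higher in Th1 cells than in both Treg and exhausted CD8 cells and for the 3 counted as lower; each point is 1 mouse and dotted lines mark 2-fold. Against Tfh cells Tff1 lies at 1.57, Gzmb at -1.45 and Fgl2 at -0.71 on average; the points lie outside the dotted lines in the other 2 panels.

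Gene groups fill in this picture. Of the Th1 list of 26 genes, 22 were measured. None was counted against Tfh cells, 6 were higher than in Treg cells (Ifng, Il18rap, Cxcr6, Tnf, Lta and Csf2), and 4 were higher than in exhausted CD8 cells (Ifng, Tnf, Lta and Csf2) and 2 lower (Ccl5 and Ly6c2). Dissociation stress genes moved with 2 of the contrasts. Against Tfh cells 10 of 18 were lower in all 6 mice (376 of all 6265 genes), with a median difference of -0.32. Against exhausted CD8 cells 11 of 18 were higher in all 6 mice (1274 of all 6426 genes), with Hspa1a (3.10 ± 1.04), Hspa1b (3.42 ± 0.69) and Nfkbia (1.60 ± 0.16) counted as higher. Their part in either contrast was not tested. Of 16 measured myeloid markers, 9 were lower and 0 higher than in Treg cells in all 6 mice (median difference -0.55). Against Tfh cells 6 of 16 were lower and 1 higher (median -0.23). Of 38 measured interferon response genes, 20 were lower and 0 higher than in Treg cells in all 6 mice (1208 lower and 994 higher of all 6582 genes). Their median was -0.57, with Isg20, Gbp7 and Iigp1 counted as lower. Il12rb2, the inducible chain of the interleukin-12 receptor, was at 169 CPM and Stat4, its signal transducer, at 226 CPM, each higher than in Treg cells on average by 1.21 and 1.27 but not in each mouse by 2-fold. Their list, of interleukin-12, interleukin-18 and interferon-gamma signalling, otherwise leaned lower: of 16 measured genes 3 were higher and 9 lower than in Treg cells in all 6 mice, the median difference was -0.33, and Il18rap was counted as higher and Irf1 as lower. Of the Treg list of 21 genes, 20 were measured against Treg cells, 8 were lower and 1, Nrp1, was higher in Th1 cells. Foxp3 had a mean difference of -4.42 ± 0.49, and Ikzf2, which encodes the Treg factor Helios, of -3.25 ± 0.20. Of the Th17 list of 8 genes, 2 were measured. Their median difference was 0.61 from Tfh, 0.82 from Treg and 1.64 from exhausted CD8 cells. Ccr6 was counted as higher than in exhausted CD8 cells.

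The CD8 list of 21 genes gave 5 lower members against exhausted CD8 cells (Cd8a, Cd8b1, Gzmb, Gzmk and Ctsw) and 3 higher members against Treg cells (Xcl1, Klrd1 and Klrc1). Klrd1 and Klrc1, which encode both chains of the inhibitory NK receptor CD94 and NKG2A, were at 348 ± 115 and 452 ± 126 CPM in Th1 cells. Treg cells had 19.5 ± 10.5 and 55.1 ± 24.6 CPM, while Tfh and exhausted CD8 cells had 406 ± 131 and 548 ± 146 CPM of Klrd1. The Tfh list had 6 members higher than in exhausted CD8 cells (Slamf6, Cd200, Maf, Izumo1r, Tnfsf8 and Cd40lg) and, against Treg cells, 3 higher (Cd200, Tnfsf8 and Cd40lg) and 2 lower (Maf and Izumo1r). Inhibitory receptors gave no counted member in any contrast: Pdcd1 (PD-1) stood at 869 CPM in Th1 cells, with mean differences of 0.00 from Tfh, 1.37 from Treg and -0.26 from exhausted CD8 cells. Among homing receptors, Cxcr6, Ccr7 and Itgb1 were higher than in Treg cells and the lower ones included Ccr2, Itgae and Itgb7, and Ccr6, Ccr7 and Ccr8 were higher and Itga1 lower than in exhausted CD8 cells. Markers of tumour and stromal cells were low, with Igfbp7 alone at 20 CPM or more among 10. Igfbp7, a secreted protein that binds growth factors, was at 368 ± 91.1 CPM and was seen in 98 to 153 Th1 cells in each of the 5 larger libraries.

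Single Th1 cells did not all carry these transcripts. After thinning, Csf2 was seen in 12.1% ± 4.90, Ccl1 in 23.4% ± 12.1, Penk in 29.2% ± 6.70 and Cd40lg in 18.5% ± 3.84 of Th1 cells (SD, n = 6), against 0%, 0.0479%, 0.760% and 0% in B cells. With 0 of 758 B cells, counting error alone allows a share of up to 0.396% for Csf2 and Cd40lg. Cells with an Ifng UMI more often had a UMI of Csf2 (17.1% against 7.40% of cells without, higher in 5 of 6 mice), Ccl1 (29.8% against 17.2%, 5 of 6), Cd40lg (21.3% against 15.6%, 6 of 6) and Cxcr6 (52.2% against 42.2%, 6 of 6). Penk did not go this way (27.9% against 30.2%, 2 of 6 mice higher). Cd3e, a chain of the T cell receptor complex was at 93.1% and 90.7% (5 of 6 mice higher), Cd4 at 75.2% and 66.8% (5 of 6) and Tbx21 at 17.0% and 15.7% (4 of 6). These shares describe cells of shared libraries and were not tested.

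Because the reads start at the 5-prime end, the variable genes of the T cell receptor beta chain were counted in single cells. Trbv13-1 was the most frequent in Th1 cells of 5 of 6 mice, at 43.4%, 38.2% and 26.4% of the cells with a call in KO replicates 1 to 3 and at 34.8% and 24.0% in WT replicates 2 and 3. KO replicate 4 had Trbv13-2 first (18.3%) and Trbv13-1 second (17.6%). The Th1 cells resembled the Tfh cells of their own mouse: the summed overlap of the variable gene shares was 81.8% on average within a mouse (73.9% to 86.8%) and 56.8% between mice (40.9% to 69.0%, 30 pairs). For Treg cells these were 42.5% and 39.3%, and for exhausted CD8 cells 36.9% and 39.1%. A variable gene is shared by many receptors, so the overlap is one of gene use and not of clones.

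The genotype comparison within Th1 cells asked whether deletion of Siglece in microglia went with a changed transcriptome of these T cells. In edgeR's quasi-likelihood test on UMIs summed per mouse, 3 of 9209 genes passed a Benjamini-Hochberg adjusted p of 0.05 (0.0326%), all lower in KO mice: Gm6969, Cst3 and Ptn. At an unadjusted p under 0.05 there were 340 genes, and DESeq2 called 5. None of the 3 genes belongs to the Th1 list, and Gm6969 alone was called under each of the 16 alternative settings. One of these settings, a minimum of 50 cells per mouse, kept the same mice and so could not change a call. Each mouse is a separate animal. The p-values set the genotype difference against the spread between mice, which the fit estimates with help from other genes.

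Gm6969, annotated as a processed pseudogene (GRCm38, chr12:24638669-24639010), was at 5.22, 12.9, 8.78 and 12.1 CPM in KO replicates 1 to 4 and at 101 and 104 CPM in WT replicates 2 and 3. The groups lay far apart, with a log2 change of -3.29 (SE 0.24, edgeR adjusted p 1.69e-05). The UMIs came from 93 and 71 WT cells. Its sums were not whole numbers in 5 of 6 mice, and those of Ifng in 6 of 6. Whether reads that also match other loci are part of the Gm6969 sums was not tested. The other annotations gave the same direction: the log2 change was -2.77 in Tfh, -2.37 in Treg and -2.94 in exhausted CD8 cells (edgeR adjusted p 0.00125, 0.00197 and 0.00139).

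Cst3, which encodes the secreted protease inhibitor cystatin C (chr2:148871722-148875692), was at 492, 602, 551 and 562 CPM in KO mice and at 1016 and 1247 CPM in WT mice. The log2 change was -1.04 (SE 0.16, edgeR adjusted p 0.0488), and it stayed called in 6 of 16 alternative settings, the minimum of 50 cells among them. The call ended when any 1 mouse other than WT replicate 2 was left out (edgeR adjusted p 0.0683 to 0.395). In these tissues Cst3 is an abundant transcript of microglia and other myeloid cells and was in the myeloid marker list. Of that list of 18, 14 members lay below 0 with a median of -0.27, and its summed level ran from 1924 to 4087 CPM in KO mice and from 3321 to 3943 CPM in the 2 WT mice, with no member at 0. Leaving out the tenth of cells highest in myeloid markers, a list that holds Cst3 itself, gave a log2 change of -0.66 (edgeR adjusted p 1.000). When those cells were picked by the list without Cst3, a choice made after seeing the data, the change was -1.03 (SE 0.16, edgeR adjusted p 0.0616). Single cells held up to 23.3% of the Cst3 UMIs of a mouse (KO replicate 3) and 19.4% in WT replicate 2. The part of myeloid transcripts left in the other cells was not tested.

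Ptn, which encodes the growth factor pleiotrophin (chr6:36714929-36810220), was rare: 0, 1, 4 and 7 UMIs in KO mice and 30 and 33 in WT mice, or 0, 0.952, 3.05, 4.70, 22.6 and 31.6 CPM. The UMIs came from 12 and 7 WT cells and from 0 to 4 KO cells. The log2 change was -3.35 (SE 0.52, edgeR adjusted p 0.0488), and 5 of 15 alternative settings, the minimum of 50 cells among them, kept the call. It ended when any 1 mouse other than KO replicate 4 was left out (edgeR adjusted p 0.101 to 0.395). Among genes not called, those with the smallest p and groups that did not overlap were Zfp36l2, Cox7a2l, Cirbp, Fbrsl1, Snapin, Il10ra, Snhg3 and Ocel1 with higher values in KO mice, and Fam178b, Ebi3, Cd70, Sdf2 and Trbv29 with lower ones. Such separation was common, with all KO mice above both WT mice in 561 genes (6.09%) and below both in 551 genes (5.98%).

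Zfp36l2, an RNA-binding protein that promotes decay of cytokine mRNA, was at 572, 649, 718 and 627 CPM in KO mice and at 335 and 338 CPM in WT mice, a log2 change of 0.92 (SE 0.16, edgeR adjusted p 0.113). DESeq2 and the fit with no filter on low counts called it, as did the fit that kept WT replicate 1. Ebi3, a subunit of interleukins 27 and 35, had 64.1 to 101 CPM in KO mice and 166 and 136 CPM in WT mice (log2 change -0.86, edgeR adjusted p 0.797). Cd70, the ligand of Cd27, had 20.9 to 31.4 CPM against 38.4 and 77.5 CPM, and Il10ra, the interleukin-10 receptor chain, 103 to 149 CPM against 88.8 and 72.7 CPM.

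**Figure D4:**
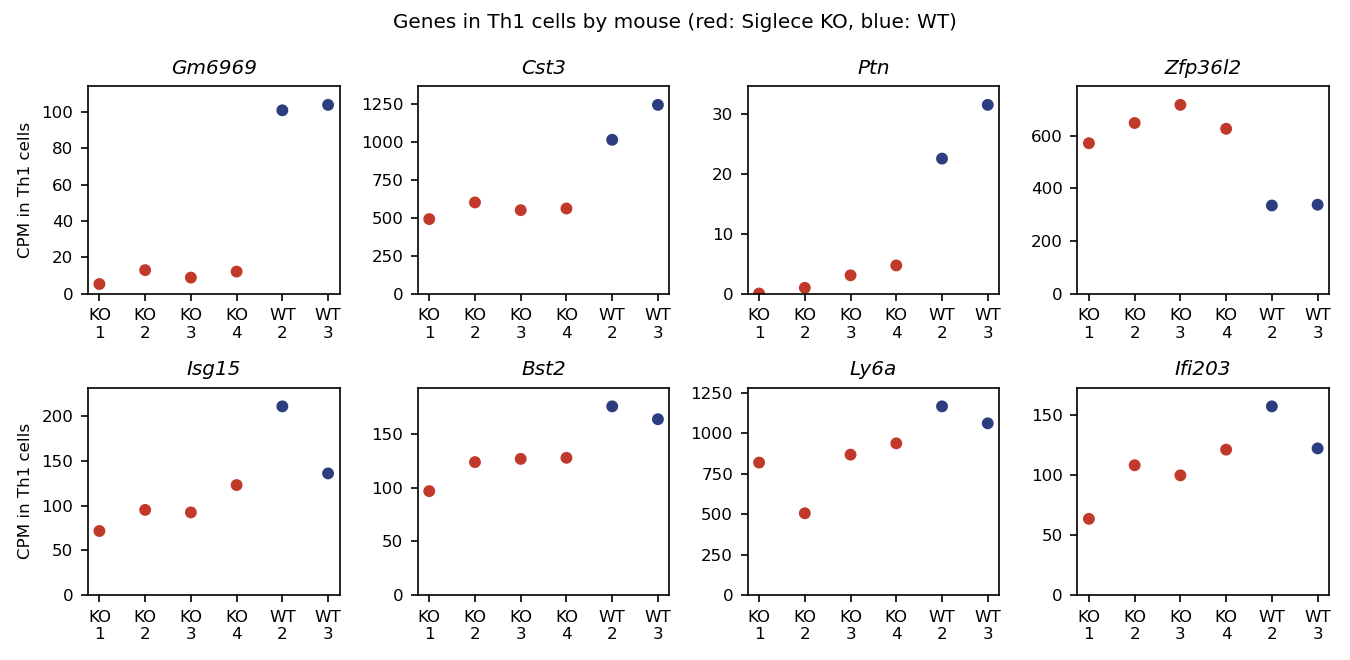
CPM in Th1 cells of the 4 KO mice (red) and the 2 WT mice (blue) for the 3 called genes, for Zfp36l2 and for 4 genes of the interferon response list; axes are linear and start at 0. For each of the 8 genes the KO points do not overlap the WT points.

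The Th1 genes themselves did not pass the test. Tbx21 was at 99.9, 109, 131 and 86.6 CPM in KO mice and at 85.0 and 93.7 CPM in WT mice, which overlap (log2 change 0.25, SE 0.19, edgeR adjusted p 1.000). Ifng gave 0.22 (SE 0.29) and Cd4 -0.02 (SE 0.17), both with an edgeR adjusted p of 1.000. Of the Th1 list, 23 genes were tested, 15 lay above 0 and 8 below, none was called, and the median log2 change was 0.17 against 0.01 over all genes tested. Il18rap, a chain of the interleukin-18 receptor, was at 131, 139, 140 and 73.1 CPM in KO mice and 93.3 and 56.4 CPM in WT mice, and Fasl, a death ligand, at 103, 102, 101 and 57.0 CPM against 58.7 and 59.3 CPM. In both genes KO replicate 4 stood with the WT mice. The inhibitory receptor list had a median of 0.35 (7 of 9 above 0) and the activation list a median of 0.03.

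Genes induced by interferon leaned one way, though none was called. With no filter on low counts, 1 of 16 alternative settings, Isg15 (edgeR adjusted p 0.00381) and Ifit1 (0.00398) were called, both lower in KO mice. That setting called 34 of 18934 genes, and no other setting called Isg15 or Ifit1. Of the 41 tested in the interferon response list, 37 had a log2 change below 0, against 4502 of all 9209 genes tested, and the median was -0.25. An unadjusted p under 0.05 went with a lower value in 10 of the 41, against 155 of the 9209. The myeloid marker list lay below 0 in 14 of 18 with a median of -0.27, and its part in these values was not tested. In 11 of the 41, all KO mice lay below both WT mice, against 5.98% of all genes. Isg15, a ubiquitin-like modifier, was at 71.6, 95.2, 92.4 and 123 CPM in KO mice and at 211 and 136 CPM in WT mice (log2 change -0.85, SE 0.21, edgeR adjusted p 0.966). Bst2, the virus-tethering protein tetherin, was at 96.9, 124, 127 and 128 CPM against 176 and 164 CPM (-0.52, SE 0.16, edgeR adjusted p 1.000). Ly6a (Sca-1) and Ifi203 also kept all KO mice below both WT mice, while Ifi27l2a, the most abundant member, overlapped.

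Of all 9209 genes, 4707 lay above 0. The dissociation stress genes had 17 of 18 members above 0 and a median of 0.28. The CD8 list had 14 of 19 above 0 (median 0.22) and the proliferation list 13 of 17 below 0 (median -0.22). Stress genes such as Ier2 (log2 change 0.55), Fosb (0.54) and Zfp36 (0.48) rise when tissue is digested, and their part in other values was not tested. The other annotations gave Isg15 a log2 change of -0.70 in Tfh, -1.46 in Treg and -0.34 in exhausted CD8 cells, none called. These annotations come from the same mice. The sums per mouse do not separate more cells responding from more transcript per cell, and cells with an Isg15 UMI were not counted.

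**Figure D5:**
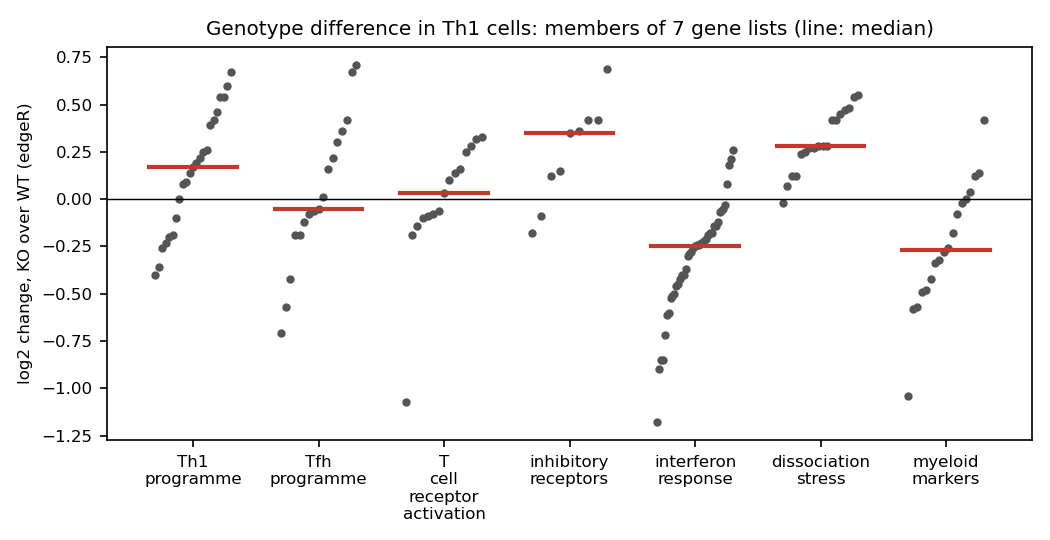
Log2 change, KO over WT, in Th1 cells for each tested member of 7 gene lists, in rank order within a list, with the median as a red line. The interferon response genes have a median of -0.25 and the dissociation stress genes one of 0.28, while the Th1 list lies around 0.17; 1 gene of the lists, Cst3, was called.

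Promoters of the interferon genes are shown because these members leaned together. The interferon-stimulated response element is built around the motif GAAANNGAA, which was searched on both strands in windows of 300 bases (250 before to 50 after the start, RefSeq, GRCm38.p6). Of all 32851 windows 8.56% held it, and of the 29 interferon response genes with a window 21 did (72.4%), with 9.76% of all genes. Of the 6 members most abundant in Th1 cells, Isg15, Bst2 and Ifi203 had a window in the table, and each held the motif on the given strand. Ifi203 has 2 windows, of which 1 held it and is shown. Letters in capitals mark the motif, overlapping copies run together, and each sequence is written 5′ to 3′ on the strand of its gene, the minus strand.
Isg15: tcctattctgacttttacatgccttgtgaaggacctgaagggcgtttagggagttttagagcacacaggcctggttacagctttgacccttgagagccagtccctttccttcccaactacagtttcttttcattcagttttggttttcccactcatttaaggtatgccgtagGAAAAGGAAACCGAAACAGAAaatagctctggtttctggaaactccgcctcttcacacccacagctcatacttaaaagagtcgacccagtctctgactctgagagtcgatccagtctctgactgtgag
Bst2: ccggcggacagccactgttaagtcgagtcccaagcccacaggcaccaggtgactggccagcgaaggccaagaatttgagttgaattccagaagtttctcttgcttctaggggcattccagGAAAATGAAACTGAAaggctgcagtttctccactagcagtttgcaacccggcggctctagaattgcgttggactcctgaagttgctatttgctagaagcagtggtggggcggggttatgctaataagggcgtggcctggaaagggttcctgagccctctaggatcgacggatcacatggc
Ifi203: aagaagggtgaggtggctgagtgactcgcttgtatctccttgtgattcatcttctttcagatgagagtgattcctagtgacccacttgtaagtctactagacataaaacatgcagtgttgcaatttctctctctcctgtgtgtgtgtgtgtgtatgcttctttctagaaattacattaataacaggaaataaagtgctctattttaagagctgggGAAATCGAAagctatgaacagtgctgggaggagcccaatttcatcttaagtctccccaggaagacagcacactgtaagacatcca
The Isg15 window (chr4:156200769-156201068) holds 3 overlapping copies whose first bases lie at -78, -72 and -66 from the start. The Bst2 window (chr8:71537423-71537722) holds 2, at -130 and -124, and the Ifi203 window (chr1:173942443-173942742) 1, at -35. A match describes the letters and is no evidence of binding here.

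Whether the genotype difference in Th1 cells was another than in the compared cells was tested in a fit with a term for each mouse. Of 10039 genes, 2 differed in this way from Tfh (0.0199%), 2 from Treg (0.0199%) and 1 from exhausted CD8 cells (0.00996%). Kdm6b, a demethylase of histone H3, was at 40.2, 39.0, 50.4 and 63.7 CPM in KO and 30.9 and 36.3 CPM in WT Th1 cells, and at 89.4, 58.7, 86.8 and 96.7 CPM in KO and 125 and 138 CPM in WT Tfh cells. The genotype difference in Th1 minus that in Tfh cells was 1.22 on the log2 scale (SE 0.24, edgeR adjusted p 0.0340). It stayed called without KO replicate 1 and ended without any 1 of the other mice, where it was 1.15 to 1.28 (edgeR adjusted p 0.0884 to 1.000). The other calls were antigen receptor segments: Igkv1-110, of which 1 cell of KO replicate 4 held 97.1% of the UMIs of that mouse, and Trav9-1 against Treg cells, seen in 32 Th1 cells of KO replicate 2. Gm6969, Tbx21 and Ifng were not among the called genes, so a difference of their genotype effect between these annotations was not shown.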

How the data were processed

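The deposited matrix holds expected counts: UMIs per gene and cell, unscaled, 7.97% of the non-zero values of Th1 cells not whole (7.74% of UMIs); how these arose is not given in the sources used here. The submitters' processing notes name FastQC 0.11.5, STAR 2.7.10a, STARsolo and build mm10. The deposited cell table gives the authors' cell names, and mitochondrial and ribosomal content as percent of UMIs. How names, filters and doublet handling were made is not given in the sources used here, and no doublet step was added.

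UMIs were summed per mouse and cell name and rounded, 1 sum per mouse with at least 20 cells. edgeR 4.0.16 was run with TMM, filterByExpr, robust quasi-likelihood and genotype as the term, on Th1 sums alone. The interaction fit added 1 term per mouse. DESeq2 1.42.0 was an alternative. SE is the size of the log2 change divided by the root of F. The fit was tested on simulated data. Gene positions are from GENCODE M21 (GRCm38). Shares were compared by exact permutation.

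Genes named are those past the threshold, up to 8 per direction that did not overlap, the Th1 list, the largest called differences between cell names, and list members by counts. Ligands, receptors and other genes singled out beyond this were chosen after their values were seen. The members and lists were chosen with earlier results of these data known. Xist and Y-linked genes marked KO 1, KO 2 and WT 3 as female mice. A few genes of the lists are not reported here.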

Additional observations from a re-analysis of the deposited data

Results flagged for a closer look

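Of 42 values looked at in the 4 KO mice, 5 had 1 mouse far from the other 3, and chance alone marks about 1 in 20. The gap to the nearest mouse, as a share of the range, was 0.879 for Cd70 (31.4 CPM in KO replicate 2, 20.9 to 22.1 CPM in the others) and 0.910 for Csf2 (285 CPM in KO replicate 2, 119 to 134 CPM in the others). It was 1.00 for Trbv29 by construction, since KO replicate 3 held the only UMI of the 4 KO mice. KO replicate 4 was the low mouse for Il18rap (gap 0.872, 73.1 CPM) and for Fasl (gap 0.954, 57.0 CPM).

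The genotype difference was another in Th1 cells than in the compared cells for 3 genes by the interaction test of edgeR. Kdm6b differed by 1.22 from Tfh cells (SE 0.24, adjusted p 0.0340). Trav9-1 differed by 6.70 from Treg cells (SE 1.09, adjusted p 0.0222), with 101 and 26.7 CPM in Th1 cells of KO replicates 2 and 3 and at most 1.49 CPM in the other 4 mice. That call ended without KO replicate 1, 2 or 3 or WT replicate 3 (edgeR adjusted p 0.0634 to 0.658). Igkv1-110, an immunoglobulin segment, differed by 4.08 from Tfh, 4.99 from Treg and 6.33 from exhausted CD8 cells (adjusted p 0.00373, 2.00e-05 and 3.46e-04), with 349 CPM in KO replicate 4, 16.9 CPM in WT replicate 2 and 0 in the other mice, and 97.1% of the UMIs of KO replicate 4 lay in 1 cell. Without KO replicate 4 the 3 differences were 0.06, 0.51 and 1.77, and the calls ended there and without WT replicate 2 (edgeR adjusted p 1.000).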

How the results depend on the processing

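The difference in Th1 share turned positive as a share of all sorted cells (1.74), of CD4 T cells (3.28) and without WT replicate 2 (1.23), and ranged from -5.29 to 1.23 when 1 mouse was left out.

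The 3 genotype calls became 5 with DESeq2, 34 with no filter on low counts, 17 with the replicate block, and 1 each with sums cut down to whole numbers, with cells that had a Cd4 UMI and no Cd8 UMI, or without the cells highest in myeloid markers; leaving out 1 mouse gave 1 to 8 (1 without KO replicate 1, 2 or 3, 8 without KO replicate 4 or WT replicate 3, 6 without WT replicate 2). Keeping WT replicate 1, chosen after seeing the data, gave 2. Gm6969 remained in all of these. The deviations of same-numbered mice had correlations of -0.166 and -0.126 for replicates 2 and 3. Only these 2 pairs were available, so they cannot settle whether the numbers mark pairs. The 17 calls stand as a count only.

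Without the filter on low counts, the interaction calls were 4 (Tfh), 8 (Treg) and 12 (exhausted CD8 cells). Leaving out 1 mouse gave 0 to 3, 1 to 3 and 1 to 5.

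Against Tfh cells, genes higher in Th1 became 2 with a pseudocount of 5 CPM and 1 to 2 with a mouse left out, and genes lower became 4 with only the Th1 side limited to cells with a Cd4 UMI and no Cd8 UMI. With both sides so limited, chosen after seeing the data, genes higher became 0 and genes lower stayed at 2, Ccl3 and Ccl4. Against exhausted CD8 cells, genes lower became 26 with a pseudocount of 20 CPM.

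Under the replicate block, list medians were -0.06 for activation, 0.10 for inhibitory receptors, 0.48 for dissociation stress, 0.10 for the Th1 list, -0.40 for interferon response, -0.35 for proliferation, -0.14 for homing receptors and -0.14 for myeloid markers. Leaving out 1 mouse moved the median from 0.05 to 0.31 for the Th1 list, -0.05 to 0.10 for activation and 0.16 to 0.58 for inhibitory receptors. It moved from -0.03 to 0.20 for homing receptors and -0.60 to 0.52 for proliferation. For myeloid markers it ran from -0.49 (without KO replicate 2) to -0.05 (without KO replicate 1 or 3). In these runs the interferon response median lay between -0.34 and -0.22, and dissociation stress between 0.22 and 0.43.

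Leaving out 1 mouse moved Ifng from -0.02 (without WT replicate 2) to 0.50 and Cd4 from -0.11 to 0.07. With WT replicate 1 kept, Ifng was 0.60. Cd4 was 0.08 with the replicate block, 0.04 in Cd4-only cells, 0.16 with WT replicate 1 kept, 0.04 without KO replicate 1 and 0.07 without WT replicate 2. Without thinning, Cd4, Tbx21 and Ifng were seen in 91.7%, 39.2% and 66.7% of Th1 cells. Ptn rested on few UMIs, 0 to 7 in a KO mouse and 30 and 33 in WT replicates 2 and 3. In those WT replicates 1 cell held 23.3% and 36.4% of the Ptn UMIs of the mouse. The cause of each change named here was not tested.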

Other observations

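Gzma, a granzyme of NK and cytotoxic cells, was uneven between mice in Th1 cells: 2.98, 284, 5.34 and 3.36 CPM in KO replicates 1 to 4 and 13.5 and 1133 CPM in WT replicates 2 and 3. In WT replicate 3 its 1184 UMIs came from 27 of 164 Th1 cells, with 24.7% of them in 1 cell, and in KO replicate 2 its 298 UMIs came from 13 of 241 cells. Il13, a cytokine of the Th2 lineage, had 54 UMIs in 3 Th1 cells of WT replicate 3 and at most 3 UMIs in any other mouse.

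By the deposited cell cycle calls, 77.9% of Th1 cells were in G1, 18.4% in S and 3.68% in G2M, and the G1 share ran from 65.9% in WT replicate 3 to 85.1% in WT replicate 2 among the mice with at least 20 Th1 cells. The proliferation list, with 17 genes tested, had a median log2 change of -0.22 between genotypes and no called member.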
